A study of Mus musculus with 26 samples.

Results

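Subcerebral projection neurons (SCPNs) are the deep-layer cortical neurons that send axons out of the cortex toward the brainstem and spinal cord. They were taken here as nuclei of the E15.5 mouse cortex that carried at least 1 unique molecular identifier (UMI) of Fezf2 and at least 3 UMIs of Fezf2, Ldb2 and Bcl11b together. Such nuclei also had no UMI of Hs3st4 or Htr1f, none of Gad1 or Gad2, and at most 1 UMI over Sox2, Hes5 and Slc1a3. This rule kept 4795 of 43456 nuclei (11.0%) that had at least 500 UMIs and 200 genes. Fezf2 encodes the transcription factor that directs this fate, and Bcl11b (also called Ctip2) acts downstream of it in axon outgrowth to the spinal cord. Ldb2, a partner of LIM-domain proteins, is a known marker of the type. Corticothalamic projection neurons, their deep-layer neighbours, use Tbr1, Sox5 and Tle4, and callosal projection neurons, which join the hemispheres, use their own upper-layer programme. In the embryo these programmes overlap before young neurons settle into a single fate.

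The study asked whether microglia shape how the fetal cortex responds to maternal immune activation (MIA). Dams received poly(I:C), a mimic of viral RNA, or saline intraperitoneally at E12.5, and nuclei of male prospective S1 cortex (C57Bl/6N strain) were sorted at E15.5 for Chromium 3′ v3.1 sequencing. The 4 groups of 2 libraries were wild-type saline, wild-type MIA, Csf1r-null (Csf1r-/-) saline and Csf1r-null MIA. Csf1r encodes a receptor that microglia need to survive, and the null embryos, littermates of the wild type, lack microglia per the study. A condition had 2 or 3 embryos from 4 dams in all, and which dam or embryo went into which library was not given in the sources used here, so p-values below measure the spread between libraries.

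Csf1r itself was read over all nuclei as a check of the labels. Its UMIs numbered 23 and 11 in wild-type saline, 23 and 1 in wild-type MIA, 4 and 10 in Csf1r-null saline, and 2 and 1 in Csf1r-null MIA. UMIs of 12 microglial genes followed: the library labelled wild-type MIA replicate 2 held 54, fewer than every library labelled Csf1r-null, whereas replicate 2 of Csf1r-null saline held 210, against 105 in its replicate. Scaled by all UMIs of a library, these genes stood at 4.93 CPM in wild-type MIA replicate 2, within the 4.66 to 7.23 of the other 3 Csf1r-null libraries, and at 21.6 in Csf1r-null saline replicate 2, within the 20.1 to 38.5 of the other 3 wild-type libraries. Both of these libraries go against their genotype labels, so counts of calls, shares and the wild-type list medians after MIA are also given without them. A library had 4552 to 6198 nuclei with a median of 1469 to 2954 UMIs, and pairs of libraries shared 0 to 14 cell barcodes.

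The members numbered 321 and 613 in wild-type saline, 841 and 571 in wild-type MIA, 638 and 480 in Csf1r-null saline and 840 and 491 in Csf1r-null MIA. Their median depth, 2154 to 3461 UMIs per library, was above that of all nuclei in every library, and a rule that asks for 3 UMIs favours deeper nuclei. Levels are given as CPM, where UMIs were summed over the members of a library and scaled by their total, and an SD is over 8 libraries unless said otherwise. The 3 genes that chose the members are given as a description. Fezf2 (ENSMUSG00000021743, chr14:12342094-12348189, minus strand, mm10) stood at 648 to 854 CPM (median 736) across libraries. Bcl11b (ENSMUSG00000048251, chr12:107910403-108003602, minus strand) stood at 781 to 1087 CPM (median 969.6) and Ldb2 (ENSMUSG00000039706, chr5:44472132-44799680, minus strand) at 193 to 319 CPM (median 224). Bcl11b was found in 83.2% to 92.5% of the members of a library and Ldb2 in 37.8% to 51.1%, and all 3 genes together in 34.2% to 46.0%. In the interneuron gate described below Fezf2 was found in 0% to 6.45% of nuclei and Ldb2 in 0% to 7.69% at a median of 1826 to 3209 UMIs, while Bcl11b, which cortical interneurons also make, was found in 35.3% to 90.9%. A single Fezf2 UMI was all that 31.0% to 43.8% of members had of that gene, while 20.0% to 39.9% had 3 or more.

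At the edge of the rule, 1147 members had exactly 3 marker UMIs and 1496 nuclei that met all other terms had 2. The nuclei just inside had mean levels of 1124 CPM of Sox5, 337 of Bhlhe22, 18.7 of Nr4a3, 436 of Tle4 and 43.5 of Cdh10. Just outside, the means were 859 CPM of Sox5, 263 of Bhlhe22, 9.90 of Nr4a3, 432 of Tle4 and 83.0 of Cdh10. Sox5, by marker sum, stood at 1282 CPM in members with 3 or 4 marker UMIs, 1842 with 5 to 7 and 2179 with 8 or more. Kirrel3 went from 104 through 187 to 219.6 CPM over the same classes, and Cux1, an upper-layer transcription factor, from 115 through 49.9 to 25.7. Mean Tle4 was level across the threshold. Just inside it Cdh10 was lower in 8 of 8 libraries, while Nr4a3 was higher in 6 and lower in 2. Members with more marker UMIs had more Sox5 and Kirrel3 and less Cux1. They were also deeper, at library medians of 1863 to 2830.5 UMIs with 3 or 4 marker UMIs and 2838 to 4511 with 8 or more. The part of depth in these trends was not tested.

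The label was checked against 13 other genes known from SCPNs, whose levels in the members alone do not tell the type. Against the corticothalamic and callosal gates, described below, these genes split. Of these, Bhlhe22, a transcription factor needed for corticospinal axon growth, was at 339.9 ± 20.1 CPM in the members, and Cdh13, a cadherin of deep-layer neurons, was at 446 ± 44.0 CPM. Otx1, a layer V transcription factor, was at 43.9 ± 4.34 CPM. Pcp4 and Crim1, which mark corticospinal neurons after birth, were at 36.8 ± 9.39 and 25.8 ± 10.8 CPM. Crym and Etv1, layer V markers of the later cortex, were at 2.69 ± 1.85 and 1.58 ± 1.02 CPM, so both were scarce at this age. Sox5 is not among the 13 genes and stood in the list of corticothalamic genes. In nuclei with at least 1000 UMIs, each thinned to 1000, it was found in 64.8% to 82.8% of members against 0% to 12.9% of the interneuron gate. Genes of several other cell types were scarce. The 16 interneuron markers summed to 20.1 to 48.6 CPM per library in the members against 4374 to 8242 in the interneuron gate, 588 nuclei chosen by Gad1 and Gad2 UMIs. The rule barred Gad1 and Gad2 from the members, so a low sum of genes made with them was partly set by it. In wild-type saline replicate 1 the interneuron gate also carried the 12 striatal genes, at 8923 CPM against 189 to 729 in the other 7 libraries, and the lowest sum of interneuron markers. In the members the 12 microglial genes summed to 3.89 to 15.7 CPM, the 12 vascular genes to 11.8 to 25.2 and the 8 Cajal-Retzius genes to 17.1 to 41.2. Apical progenitor genes (12) summed to 176 to 272 CPM, although Sox2, Hes5 and Slc1a3 were limited by the rule. Intermediate progenitor genes (10) summed to 178 to 362 CPM and genes of dividing cells (16) to 111 to 224. The 12 genes listed for striatal neurons summed to 1339 to 1666 CPM, near the 1509 to 2155 of the callosal gate, of which Meis2 and Foxp1, also made by cortical neurons, gave 1055 and 395 CPM, while the striatal receptor genes Drd1 and Drd2 were at 13.8 and 0.608 CPM.

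To ask where the members differed from their nearest relatives, they were set against nuclei gated for the other projection fates in the same libraries. The corticothalamic gate took nuclei with at least 2 UMIs of Hs3st4 and Htr1f and under 3 of the SCPN markers (645 nuclei, 51 to 103 per library). The callosal gate took nuclei with at least 2 UMIs of its marker genes, Cux2 among them, and none of Fezf2, Bcl11b, Hs3st4 or Htr1f (3200 nuclei, 250 to 541 per library). No nucleus was in 2 gates. Median depths were 2172 to 3919 UMIs in the corticothalamic gate and 1860 to 2761 in the callosal gate. Summed UMIs were compared with edgeR's quasi-likelihood test with the library as a block, leaving out the genes of the gates, and a gene was called at a Benjamini-Hochberg adjusted p under 0.05. Against the corticothalamic gate, 1717 of 8308 genes were called (20.7%), 823 higher (9.91%) and 894 lower (10.8%) in the members. Against the callosal gate, 3197 of 9585 were called (33.4%), 1626 higher (17%) and 1571 lower (16.4%). Both comparisons share the members, and genes that vary together with the gate genes were kept in the test. DESeq2 called 1274 and 2115 genes. Without the 2 libraries that go against their labels, edgeR called 1601 and 2941.

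Most corticothalamic genes were lower in the members than in the corticothalamic gate and higher than in the callosal gate. The rule barred Hs3st4 and Htr1f and the corticothalamic gate asked for them. Lower levels of genes made with them were thus partly set by the gates. The corticothalamic list holds Ctgf and Ccn2, 2 symbols of 1 gene, so a count may hold that gene 2 times. Of the corticothalamic genes, 10 of 13 tested were called lower and 1 higher in the members than in the corticothalamic gate. This stands beside 20.7% of all genes called, and the median log2 fold change was -0.84 (all genes 0.01). Against the callosal gate 11 of 12 were called higher, beside 33.4% of all genes called, with a median of 1.58 (all genes -0.01). Tle4, a corepressor of corticothalamic neurons, had a mean of 591 CPM in the members, 2473 in the corticothalamic gate and 188 in the callosal gate. The log2 fold change of Tle4 was -2.05 ± 0.05 (SE) and 1.78 ± 0.06, with edgeR adjusted p = 4.2e-92 and 7.1e-48. Zfpm2, the cofactor Fog2 of corticothalamic neurons, showed the same order (97.9 CPM in the members, 389.8 in the corticothalamic gate and 7.99 in the callosal gate), as did Tbr1, the master factor of layer VI (256 CPM in the members, 454 in the corticothalamic gate and 137 in the callosal gate). Sox5 broke it. This SOX factor, which controls the timing of deep-layer fates, was at 1317 to 2237 CPM (median 1763) in the members, 1059.6 to 1624 CPM (median 1226) in the corticothalamic gate and 276 to 472 CPM (median 406) in the callosal gate. Its log2 fold change was 0.50 ± 0.05 and 2.22 ± 0.05 (edgeR adjusted p = 8.7e-17 and 4.7e-64), higher in the members in 8 of 8 libraries each time. The corticothalamic gate was capped at 2 SCPN marker UMIs, and the 1516 nuclei that met the SCPN terms but held Hs3st4 or Htr1f, which the rule turned away, had Sox5 at a mean of 1988 CPM (1532 to 2304), against 1746 in the members. Those turned-away nuclei had Tle4 at a mean of 1634 CPM (1265 to 2065) and Tbr1 at 421 (392 to 466), above the means of the members. Nfib, a nuclear factor of deep-layer neurons, differed from the callosal gate (0.55 ± 0.03 log2) and missed the threshold against the corticothalamic gate (0.09 ± 0.04).

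Most callosal genes were lower in the members than in the callosal gate. Their place against the corticothalamic gate varied with the marker sum. Of 14 tested outside the gates, 10 were lower and 3 higher in the members than in the callosal gate (median log2 -1.23), beside 33.4% of all genes called. Against the corticothalamic gate 7 of 13 were higher and 1 lower (median 0.83), beside 20.7% of all genes called. With a marker sum of at least 5 for membership the second median was 0.22. Cux1 had a mean of 65.6 CPM in the members, 36.4 in the corticothalamic gate and 427 in the callosal gate, but members with 8 or more marker UMIs had 25.7 CPM, and its call against the corticothalamic gate was lost with a marker sum of at least 5. Among POU factors of upper-layer neurons, Pou3f2 was at 227 CPM in the members, 43.9 in the corticothalamic gate and 623 in the callosal gate. Pou3f3 was at 289 CPM in the members, 57.1 in the corticothalamic gate and 618 in the callosal gate. Ptn, the secreted growth factor pleiotrophin, stood at 729 CPM in the members, 219 in the corticothalamic gate and 1429.7 in the callosal gate. The callosal genes higher in the members were Rorb, Lpl and Btg1. Rorb, a nuclear receptor best known from layer IV, was at 285 to 953 CPM (median 583) in the members and 54.6 to 151 CPM (median 65.5) in the callosal gate, a log2 fold change of 3.05 ± 0.06 (edgeR adjusted p = 1.1e-64). It did not pass against the corticothalamic gate (0.07 ± 0.06).

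The 13 SCPN genes outside the rule split. Against the corticothalamic gate, 7 could be tested, with 2 higher (Bhlhe22 and S100a10) and 3 lower (Crim1, Pcp4 and Cdh13). Against the callosal gate, 3 of 8 were higher (Cdh13, S100a10 and Otx1) and 2 lower (Crim1 and Igfbp4). These counts stand beside 20.7% of all genes called against the corticothalamic gate and 33.4% against the callosal gate. The list medians were -0.26 and 0.13 log2, so as a list these genes did not set the members above the corticothalamic gate. Bhlhe22 was at 339.9 CPM in the members, 49.2 in the corticothalamic gate and 333 in the callosal gate, and Cdh13 at 446 CPM in the members, 585 in the corticothalamic gate and 113 in the callosal gate. S100a10, a calcium-binding protein of layer V neurons, was the one member of the list called higher in both, at 26.4 CPM in the members, 11.4 in the corticothalamic gate and 14.2 in the callosal gate. Its log2 fold changes were 1.13 ± 0.29 and 0.97 ± 0.17. Foxp1, a forkhead factor of projection neurons that stood in the list of striatal genes, was likewise higher than in both, at 395 CPM in the members, 109.8 in the corticothalamic gate and 203 in the callosal gate, with log2 fold changes of 1.86 ± 0.09 and 1.03 ± 0.05.

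**Figure D1:**
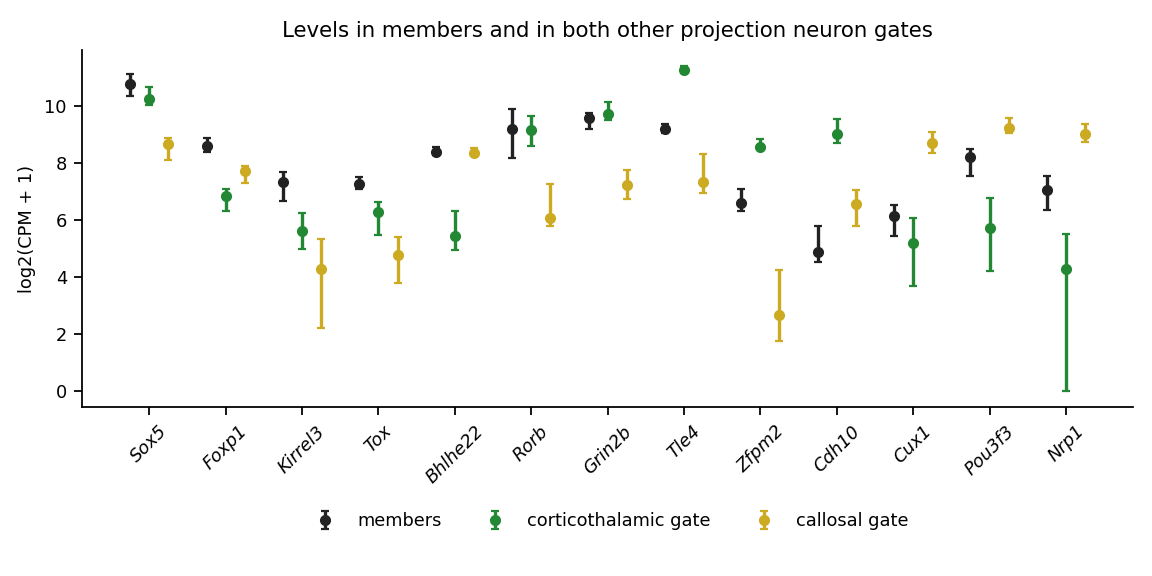
Levels of 13 genes, as log2(CPM + 1), in the members, the corticothalamic gate and the callosal gate; points are medians over 8 libraries and bars run from the lowest to the highest library. The members lie above both gates for Sox5, Foxp1, Kirrel3 and Tox, below both for Cdh10, and between them for Tle4, Zfpm2, Pou3f3 and Nrp1.

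Genes called higher than in both gates numbered 174 of 8266 tested in both (2.11%), and 98 (1.19%) were lower than in both. Kirrel3 (ENSMUSG00000032036, chr9:34485894-35036716, plus strand), an immunoglobulin-family adhesion molecule, led with Nr4a3 among the higher genes. It stood at 100.4 to 206 CPM (median 159) in the members, 30.6 to 74.8 CPM (median 47.2) in the corticothalamic gate and 3.62 to 39.5 CPM (median 18.2) in the callosal gate. The lowest library of the members lay above the highest of either gate. Its log2 fold changes were 1.70 ± 0.13 and 2.96 ± 0.10 (edgeR adjusted p = 8.6e-27 and 1.7e-46). Nr4a3 (ENSMUSG00000028341, chr4:48045153-48086447, plus strand), an orphan nuclear receptor, was at 21.0 to 43.8 CPM (median 29.0), 7.79 to 25.2 CPM (median 15.2) and 0 to 4.30 CPM (median 1.39) in the same order, with log2 fold changes of 1.01 ± 0.25 and 4.23 ± 0.26. The ranges of members and corticothalamic gate overlapped for this gene, although each library had more of it in its members.

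Nap1l5, an imprinted gene of the nucleosome assembly family, was the gene furthest above the corticothalamic gate among the leading 10, at 62.9 CPM in the members, 6.22 in the corticothalamic gate and 26.0 in the callosal gate (log2 3.24 ± 0.27 and 1.26 ± 0.11). Ryr3, a calcium release channel of the endoplasmic reticulum, was at 89.3 CPM in the members, 26.2 in the corticothalamic gate and 15.7 in the callosal gate (log2 1.80 ± 0.18 and 2.60 ± 0.12). Tnr, the matrix protein tenascin-R, was at 48.4 CPM in the members, 13.6 in the corticothalamic gate and 12.2 in the callosal gate and Tox, an HMG-box nuclear protein, at 155 CPM in the members, 74.2 in the corticothalamic gate and 28.3 in the callosal gate. For Tox the lowest library of the members (136 CPM) lay above the highest of both gates (98.8 and 41.3). The others of the leading 10 were Camk1d, a calcium/calmodulin-dependent kinase, Sh3bp4, an endocytic adaptor, Adamts17, a secreted protease, and the long noncoding RNA AC154782.1, at means of 27.5, 27.7, 23.4 and 40.4 CPM in the members.

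Cdh10 (ENSMUSG00000022321, chr15:18818947-19014236, plus strand), a classical cadherin, ranked first among the lower genes. It stood at 21.9 to 54.0 CPM (median 28.0) in the members, 410.4 to 739.8 CPM (median 514) in the corticothalamic gate and 54.4 to 132 CPM (median 94.1) in the callosal gate, and the members did not overlap with the corticothalamic gate in any library. Its log2 fold changes were -4.06 ± 0.09 and -1.47 ± 0.10 (edgeR adjusted p = 8.5e-95 and 8.7e-25). In the turned-away nuclei that held Hs3st4 or Htr1f, Cdh10 was at a mean of 98.2 CPM (66.2 to 172), above the members in every library. Lrp1b, a large lipoprotein receptor, had 10.5 CPM in the members, 121 in the corticothalamic gate and 32.3 in the callosal gate (log2 -3.60 ± 0.18 and -1.53 ± 0.16), and Col11a1, a fibrillar collagen, 41.0 CPM in the members, 272 in the corticothalamic gate and 67.2 in the callosal gate. Gpc6, a glypican, and Grik2, a kainate receptor subunit, were lower by more even amounts, with log2 fold changes of -1.18 ± 0.13 and -1.39 ± 0.08 for Gpc6 and -1.26 ± 0.16 and -0.87 ± 0.11 for Grik2. Luzp2, Tspan7, Eif1b, Cadm2 and Arhgef26 made up the rest of the lowest 10.

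The turned-away nuclei that held Hs3st4 or Htr1f beside the SCPN markers shared several of these traits with the members. Nr4a3 was at a mean of 39.4 CPM there (21.1 to 56.7 across libraries), Kirrel3 at 143 (118 to 190.5) and Tox at 129.7 (90.1 to 151). The ranges of all 3 genes overlapped with those of the members, so a difference between the members and these nuclei is not claimed for them. Apart from these genes and Cdh10, the leading genes in either direction, Nap1l5 and Ryr3 among them, were not read in the turned-away nuclei.

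**Figure D2:**
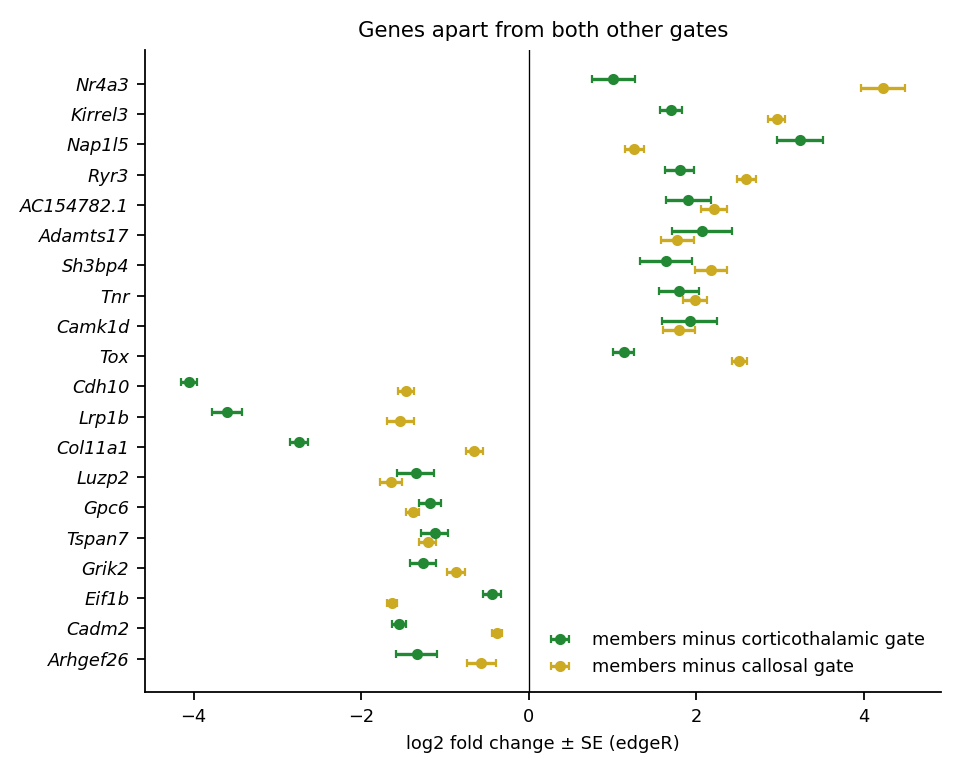
Log2 fold changes with standard errors derived from the edgeR F statistic, against the corticothalamic gate and against the callosal gate. Shown are the 10 genes highest and the 10 lowest in the members by the mean over both comparisons. Every point of the upper 10 genes lies above 0 and every point of the lower 10 below, with Cdh10 at -4.06 and Nr4a3 at 4.23 as the extremes.

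Axon guidance genes differed in both directions, and their counts stand beside 20.7% of all genes called against the corticothalamic gate and 33.4% against the callosal gate. Levels from here on are in the order members, corticothalamic gate and callosal gate. Of the receptors (26 tested), 16 were lower and 4 higher than in the callosal gate (median log2 -0.39), while 7 were higher and 7 lower than in the corticothalamic gate (25 tested, median -0.04). Nrp1, a semaphorin receptor of callosal axons, stood at 133, 18.6 and 534 CPM, and within the members at 235 CPM with 3 or 4 marker UMIs, 102 with 5 to 7 and 58.7 with 8 or more. Plxna4, its plexin partner, was at 77.2, 30.2 and 353 CPM, and Robo2, a Slit receptor, at 381, 132 and 1170.3 CPM. Robo1, another Slit receptor, and Dcc, the netrin receptor, were higher in the members than in both, at 207, 76.5 and 119 CPM for Robo1 and 149, 99.9 and 102 CPM for Dcc. The log2 fold changes of Robo1 were 1.42 ± 0.11 and 0.82 ± 0.07, and those of Dcc 0.60 ± 0.11 and 0.55 ± 0.07. Ephb1, an ephrin receptor, followed the corticothalamic side, at 92.6, 164 and 7.96 CPM. Among ligands, 7 of 20 tested were higher and 5 lower than in the corticothalamic gate, and 7 of 22 higher and 9 lower than in the callosal gate. Draxin, a secreted netrin antagonist, was higher than in both (120.2, 62.9 and 71.2 CPM). The turned-away nuclei that held Hs3st4 or Htr1f had Draxin at a mean of 121 CPM (82.9 to 165) and Robo1 at 139 (79.3 to 175). A difference between the members and these nuclei is not claimed for Draxin. Slit1, a ligand of the Robo receptors, was scarce in the callosal gate (44.0, 32.2 and 2.56 CPM). The Slit1 call against the corticothalamic gate (log2 0.51 ± 0.19, edgeR adjusted p = 0.047) was lost without any 1 of 4 libraries and by DESeq2.

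Adhesion and excitability genes were called often, beside the same 20.7% and 33.4% over all genes, and whether the lists were enriched was not tested. Of the adhesion genes, 9 were higher and 16 lower than in the corticothalamic gate (34 tested), and 18 higher and 11 lower than in the callosal gate (32 tested). Tenm1, a teneurin, was at 92.9, 458 and 43.3 CPM. Ion channel genes were lower than in the corticothalamic gate for 11 of 23 (higher for 4) and higher than in the callosal gate for 17 of 26 (lower for 6). Cacna1e, an R-type calcium channel, stood at 196, 474 and 19.5 CPM, and Kcnq3, an M-current potassium channel, at 319.6, 262 and 157 CPM. Genes of glutamate and GABA receptors gave 2 higher and 12 lower of 17 against the corticothalamic gate (median log2 -0.59), and 10 higher and 3 lower of 14 against the callosal gate (median 0.95). The NMDA receptor subunit gene Grin2b was at 755, 874 and 154 CPM, a log2 fold change of 2.34 ± 0.05 from the callosal gate. Gria2, an AMPA receptor subunit gene, ran the other way, at 4107, 2288 and 6822 CPM.

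Genes of neurite growth were called mainly lower than in the corticothalamic gate and higher than in the callosal gate. The counts stand beside the same 20.7% and 33.4% of all genes called. Of the cytoskeletal genes, 16 of 30 were lower and 2 higher than in the corticothalamic gate, and 22 of 30 were higher and 2 lower than in the callosal gate. Gap43, a growth cone protein, was at 325, 410.0 and 159 CPM, and Ina, the neurofilament protein internexin, at 312, 471 and 88 CPM. Nefm, another neurofilament gene, was at 29.0, 6.27 and 23.5 CPM, with log2 fold changes of 2.28 ± 0.34 and 0.43 ± 0.14. The second of these calls was lost by DESeq2 and without wild-type MIA replicate 1. Of the glycolysis genes 8 of 15 were higher and 2 lower than in the corticothalamic gate, and 8 of 17 higher and 2 lower than in the callosal gate. Ldha, lactate dehydrogenase A, was higher than in both (170.0, 119.6 and 79.1 CPM). Endoplasmic reticulum chaperone and stress genes gave 9 higher and 0 lower of 19 against the corticothalamic gate and 0 higher and 7 lower of 20 against the callosal gate. Calr, calreticulin, was at 221, 129 and 258 CPM. Its call against the callosal gate was lost without Csf1r-null MIA replicate 1. Proteasome genes had medians of 0.05 and -0.01 log2, and oxidative phosphorylation genes of 0.08 and 0.06.

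Genes of younger cells were few among those tested, and their counts stand beside 20.7% of all genes called against the corticothalamic gate and 33.4% against the callosal gate. Of the intermediate progenitor genes, 5 of 7 were lower in the members than in the callosal gate, and 3 of 5 were higher and 1 lower than in the corticothalamic gate. The median against the corticothalamic gate was 0.63 log2, and 0.21 with a marker sum of at least 5. Of the apical progenitor genes, 1 of 4 was higher than in the corticothalamic gate and 0 lower, and 1 of 8 higher and 5 lower than in the callosal gate. Of the genes of dividing cells, 1 of 2 was higher than in the corticothalamic gate, and 3 of 6 were lower than in the callosal gate. Neurod1, a proneural factor of newborn neurons, was at 29.8, 6.56 and 94.4 CPM, and Insm1, of basal progenitors, at 95, 39.6 and 228 CPM. The part of these differences in the others was not tested.

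The share of members among all nuclei was the first value compared between treatments. It was 6.84% and 13.2% in wild-type saline, 13.8% and 10.8% in wild-type MIA, 10.6% and 8.05% in Csf1r-null saline, and 18.5% and 7.92% in Csf1r-null MIA. The replicates of Csf1r-null MIA held the highest share and the second lowest. The exact binomial 95% intervals, which cover counting error only, were 6.14 to 7.6% and 12.2 to 14.2% in the replicates of wild-type saline and did not overlap. Group means were 10.0% ± 4.48 (SD, n = 2), 12.3% ± 2.17, 9.34% ± 1.82 and 13.2% ± 7.45 in that order. MIA minus saline came to 3.07 percentage points (two-sided exact permutation test within genotype, p = 0.389), and Csf1r-null minus wild type to 0.113 points (exact permutation p = 1.00). The smallest p that permuting libraries within genotype allows is 0.0556. Dams received the treatment but could not be permuted, since which dam gave which library was not given. Without the 2 libraries that go against their labels the differences were 3.19 and 1.05 points. With every nucleus thinned to 1000 UMIs, MIA minus saline was 1.31 points (exact permutation p = 0.333). The share also depends on the other nuclei of a library. Over nuclei that met the Gad and progenitor terms of the rule, it was 10.9% and 15.5% in wild-type saline. MIA minus saline was 3.46 points on that base (exact permutation p = 0.444). Whether fewer members, more nuclei of other types or less RNA of the marker genes per member underlies a lower share cannot be told apart here.

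**Figure D3:**
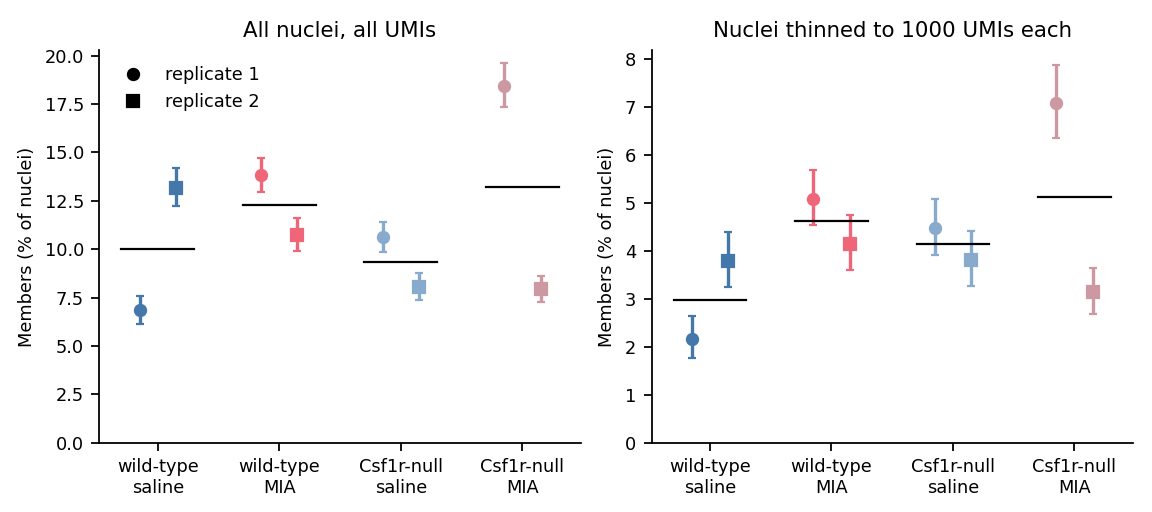
Share of members in each library, as a percentage of all nuclei (left) and of nuclei with at least 1000 UMIs, each thinned to 1000 (right), with exact binomial 95% intervals and the group mean as a line. Csf1r-null MIA replicate 1 has the highest share, 18.5%, and its replicate 7.92%.

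In the main edgeR test no single gene was called for a response of the members to MIA. Calls under other settings are given below. The comparison used UMIs summed over the members of each library, with 2 libraries a group. In wild type, edgeR called 0 of 10728 genes (0%), with 553 at an unadjusted p under 0.05, and DESeq2 called 1 (Gm42418, described below). In Csf1r-null embryos edgeR called 0 (0%), with 98 at an unadjusted p under 0.05, and DESeq2 0. The difference of the responses between genotypes gave 0 (0%, 218 unadjusted, DESeq2 0), so the genotypes were not shown to differ. The mean of both MIA contrasts gave 0 (0%, 347 unadjusted, DESeq2 0), and Csf1r-null against wild type after saline 0 (0%, 558 unadjusted, DESeq2 0). Without the 2 libraries that go against their labels edgeR called 0, 0, 0, 0 and 0. Fold changes below are therefore descriptions.

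The genes of SCPNs are given first. Fezf2 and Bcl11b chose the members, so their levels are a description and no comparison of groups is read from them. Fezf2 had 648 and 738 CPM in wild-type saline, 708 and 807 in wild-type MIA, 733 and 854 in Csf1r-null saline and 678 and 764 in Csf1r-null MIA. Bcl11b had 781 and 788 CPM in wild-type saline, 989 and 1047 in wild-type MIA, 949.7 and 1035 in Csf1r-null saline and 1087 and 913 in Csf1r-null MIA. Sox5 had 1737 and 1482 CPM in wild-type saline, 1790.0 and 1317 in wild-type MIA, 1653 and 2237 in Csf1r-null saline and 1799 and 1956 in Csf1r-null MIA, with wild-type MIA replicate 2 the lowest and Csf1r-null saline replicate 2 the highest. Over the 9 SCPN genes tested the median log2 fold change was -0.14 in wild type and -0.12 in Csf1r-null embryos (all genes 0.00 and 0.01), and -0.02 and -0.12 without the 2 libraries that go against their labels. S100a10 was the one of these at an unadjusted p under 0.05 in wild type, with 26.9 and 49.5 CPM in wild-type saline, 18.1 and 18.7 in wild-type MIA, 38.3 and 20.3 in Csf1r-null saline and 22.4 and 17.4 in Csf1r-null MIA. Callosal and corticothalamic genes had medians of 0.01 and -0.01 in wild type, and 0.10 and 0.03 without those libraries.

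Genes of protein breakdown and energy metabolism stood lower after MIA in wild type in number, without a gene called in the main edgeR test. Of 31 proteasome genes 30 had a log2 fold change below 0 in wild type (median -0.41), against 14 in Csf1r-null embryos (median 0.00). Of these genes 15 were at an unadjusted p under 0.05 in wild type, beside 553 of 10728 over all genes. In Csf1r-null embryos 0 were, beside 98 of 10728. The summed level of the 31 genes was 4734 and 5351 CPM in wild-type saline, 4113 and 3744 in wild-type MIA, 3993 and 3847 in Csf1r-null saline and 3696 and 4185 in Csf1r-null MIA. Both wild-type saline libraries were thus above the other 6, which overlapped. In the callosal gate they were also highest, with 5139 and 5627 CPM against 4006 and 3961 in wild-type MIA. Over all nuclei the sums were 5179 and 5460 CPM against 4096 and 4039, so this order was not particular to the members. Of 66 oxidative phosphorylation genes 65 were below 0 after MIA in wild type, with a median of -0.50, and 43 in the Csf1r-null libraries, with a median of -0.07. Here the replicates parted, with a wild-type median of -0.05 within replicate 1 and -0.74 within replicate 2, and a Csf1r-null median of -0.29 within replicate 1 and 0.16 within replicate 2. For the proteasome these were -0.23 and -0.59 in wild type and -0.13 and 0.17 in Csf1r-null embryos. Glycolysis genes had medians of -0.36 in wild type and -0.01 in Csf1r-null embryos. Over all nuclei glycolysis genes summed to 2380 and 2372 CPM in wild-type saline against 1819 and 1741 in wild-type MIA. Oxidative phosphorylation genes summed to 11694 and 14094 CPM against 10102.5 and 9207 there. Leaving out 1 library at a time moved the wild-type median of oxidative phosphorylation between -0.72 and -0.16, that of the proteasome between -0.60 and -0.31, and that of glycolysis between -0.43 and -0.13. Csf1r-null against wild type after saline, which shares the wild-type saline libraries, had 31 of 31 proteasome genes below 0 (median -0.41), 62 of 66 of oxidative phosphorylation (median -0.37) and 13 of 17 of glycolysis (median -0.31). With 1 library left out these 3 medians ran from -0.52 to -0.26, -0.62 to -0.06 and -0.37 to -0.16. Nuclear-retained RNAs and ribosomal protein genes are given beside them. Nuclear-retained RNAs such as Malat1 and Meg3 were above 0 after MIA in wild type in 4 of 4 (median 0.29, 0.26 to 0.36 with 1 library left out and 0.31 without the 2 libraries that go against their labels) and in Csf1r-null against wild-type saline in 4 of 4 (median 0.23, 0.07 to 0.38 with 1 library left out and 0.08 without those 2). Ribosomal protein genes summed to 33833 and 53187 CPM in wild-type saline and 43036 and 35546 in wild-type MIA. The part of RNA content in these list medians was not tested. Without the 2 libraries that go against their labels the wild-type medians were -0.38 (proteasome), -0.35 (oxidative phosphorylation) and -0.35 (glycolysis).

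Ion channel and guidance receptor genes had medians above 0 in wild type. Ion channel genes had 23 of 30 above 0 (median 0.23) and guidance receptors 22 of 28 (median 0.20), against 13 and 12 in Csf1r-null embryos (medians -0.05 and -0.01). Csf1r-null against wild type after saline had 27 and 23 above 0 (medians 0.23 and 0.18). The summed levels of these lists in the wild-type saline libraries, 2282 and 1755 CPM for channels and 4729.7 and 3955 for guidance receptors, overlapped with those of the other 6 libraries. Leaving out 1 library at a time put the wild-type MIA medians at 0.07 to 0.35 and 0.05 to 0.28, and those of Csf1r-null against wild type after saline at 0.05 to 0.41 and 0.07 to 0.22. The Csf1r-null MIA medians ran from -0.25 to 0.16 and from -0.24 to 0.03. Without the 2 libraries that go against their labels they were -0.10 and -0.13. Guidance ligands and adhesion genes had wild-type medians of 0.01 and 0.07, receptors of glutamate and GABA -0.04, and cytoskeletal genes -0.03. Of the cytoskeletal genes 11 of 31 were at an unadjusted p under 0.05 in wild type, beside 553 of 10728 over all genes, and their summed level was 30534 and 32143 CPM in wild-type saline, above the 21533 to 27563 of the other 6 libraries. Without the 2 libraries that go against their labels the medians of these 4 lists were 0.13, 0.25, 0.12 and 0.13, and those of channels and guidance receptors 0.31 and 0.28. Interferon-response genes, a readout of the antiviral programme that poly(I:C) evokes, were sparse, and 5 of 28 could be tested. They had a median of 0.20 in wild type and -0.20 in Csf1r-null embryos, and the summed level of all 28 was 95.5 to 133 CPM across the 8 libraries. The wild-type median was -0.17 within replicate 1 and 0.55 within replicate 2, ran from 0.05 to 0.40 with 1 library left out, and was 0.08 without the 2 libraries that go against their labels, so no direction is read from it. Immediate-early genes had medians of 0.19 and 0.04, but the wild-type value ran from -0.02 to 0.47 with 1 library left out and was -0.03 without those 2 libraries.

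The wild-type saline libraries stood apart from the other 6 for several of the genes with the lowest p. Tuba1a, the main alpha-tubulin of young neurons, had 8963 and 9610.5 CPM in wild-type saline, 6701 and 5313 in wild-type MIA, 6593 and 5033 in Csf1r-null saline and 5508 and 5738 in Csf1r-null MIA, and its log2 fold change after MIA in wild type was -0.69 ± 0.18 (edgeR adjusted p = 0.91). Hspa8, a constitutive heat shock cognate chaperone, had 1621 and 1394 CPM in wild-type saline, 961 and 923 in wild-type MIA, 1062 and 903 in Csf1r-null saline and 864 and 1034 in Csf1r-null MIA, and its log2 fold change was -0.73 ± 0.18. Gm42418, which overlaps a ribosomal RNA repeat, had 6317 and 5496 CPM in wild-type saline, 3731 and 3028 in wild-type MIA, 3883 and 3098 in Csf1r-null saline and 3473 and 3472 in Csf1r-null MIA. In all 3 genes both wild-type saline libraries lay above every other library, the Csf1r-null saline libraries included. These genes were chosen by a low p against wild-type saline, so this order partly follows from the choice. How many of all genes share it was not counted. Csf1r-null against wild type after saline, which shares the wild-type saline libraries, gave -0.70 ± 0.18 for Tuba1a, -0.63 ± 0.18 for Hspa8 and -0.77 ± 0.17 for Gm42418. The same was seen in globin genes, which mark red blood cell RNA. Hbb-bs had 114 and 86.2 CPM in wild-type saline, 46.6 and 55.4 in wild-type MIA, 49.5 and 44.3 in Csf1r-null saline and 32.8 and 51.5 in Csf1r-null MIA, and the 7 globin genes summed to 283 and 212 CPM in wild-type saline against 76.2 to 139 in the other 6 libraries. Reads of Hbb-bs and Hbb-bt, and of Hba-a1 and Hba-a2, cannot be assigned with certainty between near-identical copies. Wild-type saline replicate 1 had 234 nuclei in the gate of Gad1 and Gad2 against 31 to 82 elsewhere, with the striatal genes given above, and over all its nuclei the striatal genes summed to 3462 CPM against 1722 to 2335. Within the members its striatal sum, 1601 CPM, lay inside the range of the other libraries. The part of blood RNA and of striatal tissue in these differences was not tested.

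A few genes of low p were ordered by treatment, some in both genotypes. They were chosen by that p, so the order partly follows from the choice. How many of all genes share such an order was not counted. Bcar1, an adaptor of integrin signalling, had 26.9 and 33.3 CPM in wild-type saline, 53.8 and 52.8 in wild-type MIA, 38.3 and 29.5 in Csf1r-null saline and 56.1 and 45.7 in Csf1r-null MIA. Each MIA library lay above each saline library, and the log2 fold change was 0.74 ± 0.22 in wild type, 0.58 ± 0.22 in Csf1r-null embryos and 0.66 ± 0.15 over both (edgeR adjusted p = 1.00). Nr4a3, one of the genes higher in the members than in both gates, had 21.0 and 24.0 CPM in wild-type saline, 36 and 43.8 in wild-type MIA, 28.9 and 24.9 in Csf1r-null saline and 39.9 and 29.1 in Csf1r-null MIA, with a log2 fold change of 0.55 ± 0.18 over both genotypes. The saline and MIA libraries of this gene met at 28.9 and 29.1 CPM. Mrps36, a mitochondrial protein gene, had 73.2 and 71.5 CPM in wild-type saline, 58.5 and 48.9 in wild-type MIA, 60.2 and 56.3 in Csf1r-null saline and 39.6 and 40.7 in Csf1r-null MIA and the lowest p of the genes with less after MIA over both (-0.51 ± 0.13). By the Csf1r-null contrast, Cdc42ep3, a Cdc42 effector, had 42.0 and 34.3 CPM in wild-type saline, 42.1 and 41.2 in wild-type MIA, 46.7 and 35.1 in Csf1r-null saline and 22.7 and 23.3 in Csf1r-null MIA (log2 -0.86 ± 0.22, edgeR adjusted p = 1.00), and N4bp1, an inhibitor of NF-kappaB signalling, had 63.9 and 60.2 CPM in wild-type saline, 68.5 and 71.5 in wild-type MIA, 45.3 and 53.5 in Csf1r-null saline and 79.8 and 73.9 in Csf1r-null MIA (log2 0.65 ± 0.19). In wild type N4bp1 was also higher in both MIA libraries than in both saline ones. In wild type the lowest p among genes with more after MIA was that of Mrs2, a mitochondrial magnesium channel, with 27.8 and 24.0 CPM in wild-type saline, 43.1 and 43.8 in wild-type MIA, 38.3 and 37.8 in Csf1r-null saline and 40.6 and 37.4 in Csf1r-null MIA (log2 0.70 ± 0.20, edgeR adjusted p = 0.91).

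**Figure D4:**
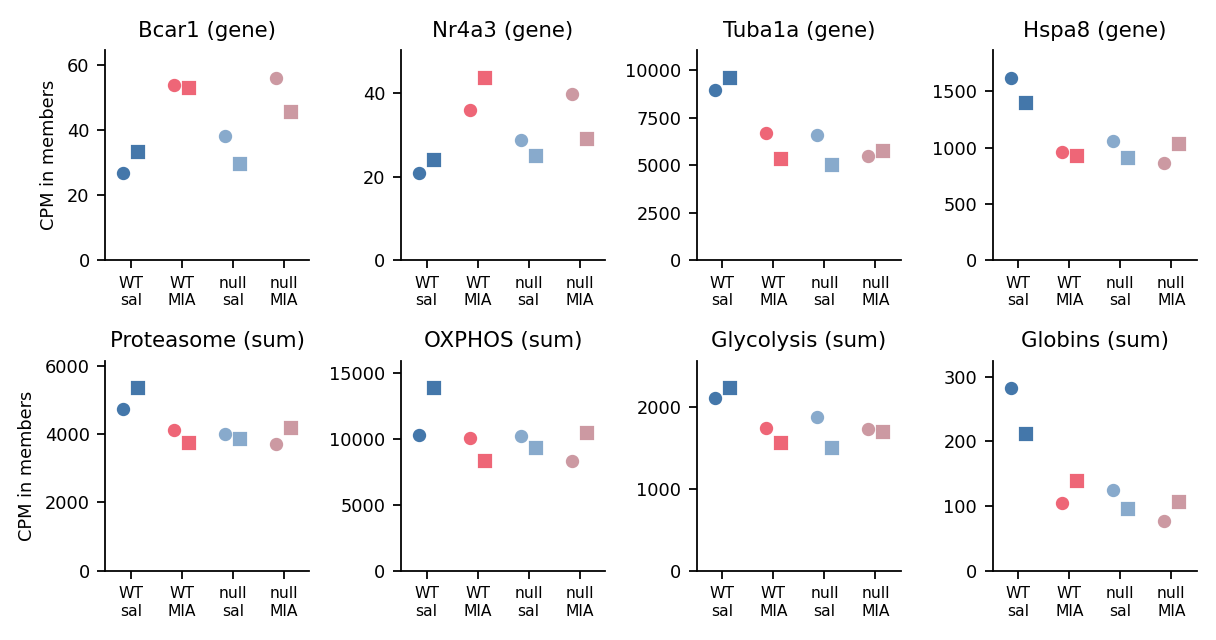
Level in the members, in CPM, of 4 genes (upper row) and of 4 gene lists summed (lower row) in each library; circles are replicate 1, squares replicate 2, WT wild type, sal saline, null Csf1r-null. Bcar1 lies higher in all MIA libraries, and Tuba1a, Hspa8, the proteasome, and the globins lie highest in both wild-type saline libraries.

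Whether the members responded to MIA unlike other projection neurons was asked by taking the wild-type change in the members minus that in the callosal gate. Of 10643 genes edgeR called 0 (0%), with 492 at an unadjusted p under 0.05, and DESeq2 called 0. Without the 2 libraries that go against their labels 1 gene was called (Arpp21, a neuronal phosphoprotein gene, named after its value was seen). A difference between the members and callosal nuclei in their response was not detectable with 2 libraries a group.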

How the data were processed

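The authors deposited UMI counts per gene and barcode made with Cell Ranger against mm10, without normalization; the headers of replicate 1 libraries name version 3.1.0 and those of replicate 2 version 6.0.1, the version given in the methods. Replicate number therefore also stands for software, gene list and barcode filter. The 18 microglia libraries were not used here. Genes were joined by Ensembl identifier (30406 genes). Members, gates and gene lists were chosen with earlier results of these data known. Doublets were not removed: Scrublet's automatic threshold marked 6 to 216 nuclei a library, under 0.5% in 2 libraries. Counts were summed per library and gate and tested with edgeR 4.0.16 (glmQLFit, TMM, filterByExpr, with limma 3.58.1 and R 4.3.3), with DESeq2 1.42.0 as an alternative. The edgeR fits, but not those of DESeq2, were tried on simulated data beforehand. The SE beside an edgeR fold change is the absolute log2 fold change divided by the square root of the F statistic. Gating ran in Python 3.11.15 with scanpy 1.11.5, pandas 2.3.3 and numpy 2.4.6, exact tests in scipy 1.17.1 and plots in matplotlib 3.10.9. A library held 1083696 to 3082029 UMIs in its members, which sets the precision of each level.

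Genes named for the gates were those called in both comparisons with the same sign in all 8 libraries and a mean of at least 20 CPM in the members or a gate, the 10 highest and the 10 lowest by mean log2 fold change. For MIA, the 10 genes with the lowest p in each direction at a mean of at least 20 CPM were considered, beside gene lists; Foxp1, Sox5, Rorb, Robo1, Dcc, Draxin, Nefm and Ldha come from the lists. Results on some genes are not reported here. Positions are from GENCODE vM21 (GRCm38). Alternatives were the replicate number as a block, DESeq2 size factors, no filter on low counts, nuclei of at least 1500 UMIs, doublets removed at 0.8% per 1000 nuclei, a marker sum of at least 5, and libraries left out.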

Additional observations from a re-analysis of the deposited data

How the results depend on the processing

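The calls against both gates kept their order of size under every alternative run. Against the corticothalamic gate edgeR called 1507 to 1674 genes when single libraries were left out. With no filter on low counts it called 2100, of which 1205 were higher and 895 lower in the members. Against the callosal gate the numbers were 2760 to 3093 and 3542 (1963 higher and 1579 lower), and DESeq2 called 2115. A marker sum of at least 5 gave 1345 and 3104. With no filter on low counts, 11 genes were called for MIA in wild type, 1 (Gm10076) for the difference between genotypes, 3 (Ackr3, Gm10076 and AY036118) over both genotypes and 8 for Csf1r-null against wild type after saline. DESeq2 called 1 (Gm42418) for MIA in wild type. The difference of the response from callosal nuclei gave 1 call (Top2a) with a marker sum of at least 5 and 1 (Arpp21) without the 2 libraries that go against their labels. These genes were named after their values were seen, and the causes were not tested. Leaving out single libraries gave 0 calls each time for MIA in wild type and in Csf1r-null embryos, where an arm of 1 library was assumed to vary like the others. Libraries that share a replicate number also share the software version and gene list, and their deviations from group means correlated at 0.311 to 0.651 over 5585 genes in 6 pairs of groups. The replicate block gave 0 calls in wild type (945 genes at an unadjusted p under 0.05), 0 in Csf1r-null embryos, 0, 0 and 0 in the other 3 MIA and genotype comparisons, and exact permutation p = 0.50 and 1.00 for the shares, and changed no call. The Csf1r-null minus wild type share turned to -0.684 points over nuclei that met the Gad and progenitor terms of the rule, and ran from -2.28 to 1.23 points without single libraries, falling below 0 without wild-type saline replicate 1 (-1.32), wild-type MIA replicate 2 (-0.0201) or Csf1r-null MIA replicate 1 (-2.28). MIA minus saline ran from 1.16 to 4.67 points without single libraries. Of the named genes, Arhgef26, Calr and Nefm against the callosal gate and Cux1, Grin2b, Kcnq3 and Slit1 against the corticothalamic gate lost their call under some alternative. With a marker sum of at least 5, Rorb and Nfib gained one against the corticothalamic gate, as did Bhlhe22 against the callosal gate.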
